A study of Mus musculus with 12 samples.

Results

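The genes described here are 9 core genes and targets of the TGF-beta pathway, out of 21887 mouse protein-coding genes. They are the ligand genes Tgfb1, Tgfb2, Tgfb3 and Inhba, the receptor genes Tgfbr1 and Tgfbr2, the signalling genes Smad3 and Smad7, and the target gene Tgfbi. They were chosen by name, with earlier results of these data known, so their contrasts with other genes are descriptions only. Every peak lying up to 50 kb from an end of a gene was taken from peak lists of 4 histone marks. The marks were profiled by chromatin immunoprecipitation and sequencing (ChIP-seq) in a pair of mouse melanoma lines, named Kmt2d Mutant 493 and Kmt2d WT 971 in the labels and called the mutant line and the WT line below. Both lines were cultured in DMEM/F12 medium containing serum, and Abcam antibodies were used. The labels do not state how the Kmt2d mutation arose or which allele the mutant line carries. Each genotype is represented by 1 line, and each line by 1 library per mark, so no difference below has a replicate check and no test was possible. In place of a test, the counts of genes are set beside the share of all protein-coding genes that meet the same rule, called the background.

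TGF-beta ligands and activins bind a type II receptor, which phosphorylates a type I receptor. The type I receptor in turn phosphorylates Smad2 and Smad3, which enter the nucleus with Smad4. The resulting complexes bind short DNA motifs containing CAGAC, while Smad7 is induced by the signal and blocks the receptor. In melanocytes the pathway restrains growth, and melanoma cells often escape that restraint while they still respond to the ligands in other ways. Kmt2d encodes a methyltransferase that writes H3K4me1, a mark of enhancers. H3K27ac marks active enhancers and promoters, H3K4me3 marks promoters, and H3K27me3 marks regions held silent by Polycomb.

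The lists themselves differed in length. The mutant and WT lists held 3649 and 17373 peaks for H3K4me1, 18751 and 26415 for H3K27ac, and 17987 and 23154 for H3K4me3. The mutant H3K4me1 list covered 15.9% of the length that the WT list covered, the H3K27ac list 66.1% and the H3K4me3 list 85.7%. With 1 library each, a difference between the lines cannot be told apart from a difference between libraries. For H3K27me3 the mutant list held 1300 regions and the WT list 25394. By its name, the mutant H3K27me3 list was called with the H3K27me3 library of the WT line as control, so it would hold regions higher in the mutant line, and it was not compared with the WT list.

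H3K4me1 around these genes lay mostly in the WT line. Summed over the 9 genes, peaks within 50 kb of a gene end covered 2.10 kb in the mutant line and 41.2 kb in the WT line, so the mutant sum was 5.09% of the WT sum. The same sum over all protein-coding genes was 22.2% of the WT sum. Of the 41.2 kb in the WT line, Smad3 held 16.4 kb, Tgfbi 8.66 kb and Smad7 8.11 kb, so that sum came mainly from these genes. All 8 genes with a peak in either line had fewer covered bases in the mutant line, which was so for 80.5% of all covered protein-coding genes, and in all 8 the mutant length was at most 0.5 times the WT length (background 71.9%). After each length was divided by the total covered length of its list, 7 of the 8 genes had less in the mutant line, Smad7 having more. No background was computed for divided lengths, here or below, so the shares given for undivided lengths are not their comparison. Of these 8 genes, 6 had no H3K4me1 peak at all in the mutant line, against a background of 48.3%. The exceptions were Tgfb3 and Smad7, which kept some mutant H3K4me1, and Tgfbr2 had no peak in either line. The median difference in covered length, mutant minus WT, was -2.45 kb for the 8 genes and -0.66 kb for all covered genes. Over each gene and 1 kb on each side, a region chosen after seeing the data, the mutant line had less at 5 of 6 covered genes. There Tgfb3 had more, with 0.320 kb against no WT base, and Tgfb1 and Tgfbr1 had no base in either line.

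H3K27ac differed in the same direction at all but 1 gene. Summed over the 9 genes it covered 2.25 kb in the mutant line and 5.58 kb in the WT line, a share of 40.3% against 60.7% for all genes. Fewer bases were covered in the mutant line at 8 of the 9 genes, against a background of 72.6%, and more at Inhba alone, against 27.3%. Divided by list length the mutant line had less at 7 of 9 genes, Smad3 and Inhba having more. Over each gene and 1 kb on each side, a region chosen after seeing the data, it had less at 6 of 9 genes. There Tgfb1, Inhba and Tgfbi had more. The mutant length was at most 0.5 times the WT length at 7 genes (background 44.9%), and Tgfb3, Tgfbr1 and Tgfbr2 had no mutant base (background 15.9%). At a gene end, within 1 kb, 5 of the 9 genes had H3K27ac in the WT line alone (Tgfb3, Tgfbr1, Tgfbr2, Smad3 and Smad7), against a background of 16.1%. None had it in the mutant line alone (background 6.84%) or in both lines (background 12.6%). The mutant line thus had no H3K27ac peak within 1 kb of any of the 18 gene ends, the nearest, inside Smad7 and Tgfb1, lying at 1.03 and 1.37 kb.

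H3K4me3 at the promoters was present in both lines for all 9 genes. Summed over the 9 genes it covered 77.5 kb in the mutant line and 87.5 kb in the WT line, which is 88.6% and close to the 89.5% of all genes. It was present at a gene end in both lines at 7 genes (background 55%), and in 1 line alone at none (background 3.05%). The other 2 genes, Tgfb2 and Inhba, have gene models that run past the start sites in the RefSeq promoter table, and both lines had a peak over those start sites. Covered length was lower in the mutant line at 6 genes, against a background of 70.3%, and higher at Tgfb1, Inhba and Tgfbr1, against 29.6%. Divided by list length it was lower in the mutant line at 4 of 9 genes, which were Tgfbr2, Smad3, Smad7 and Tgfbi.

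**Figure D1:**
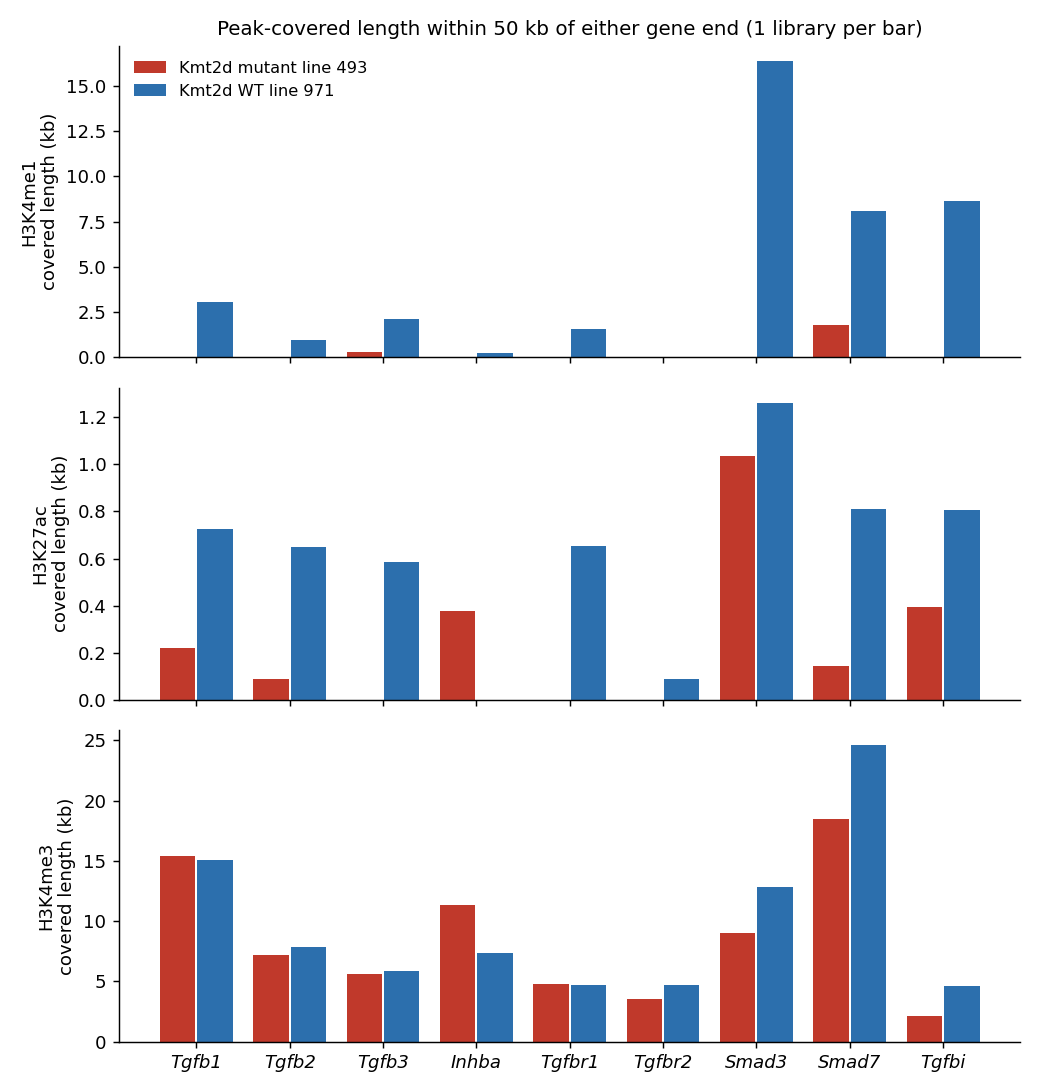
Peak-covered length in kb in the 50 kb windows around both gene ends (vertical axis) for each of the 9 genes (horizontal axis), with 1 bar for the mutant line (red, left) and 1 for the WT line (blue, right), and 1 panel per mark. Each bar is 1 library, so there are no error bars. The H3K4me1 panel is nearly all WT, with 16.4 kb at Smad3, and Inhba is the gene with more H3K27ac and H3K4me3 in the mutant line.

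Among the ligands, Tgfb1 (chr7:25687002-25705077), the most widely expressed TGF-beta isoform, carried strong H3K4me3 at its start in both lines. The start peak was 3.85 kb wide in the mutant line and 3.64 kb in the WT line, each with the deposited score of 3100, a value that recurs in both lists. The gene lies in a dense neighbourhood, and its windows also held peaks at the ends of Bckdha, Exosc5, Tmem91, B9d2, Ccdc97, Hnrnpul1 and Axl. Over the whole windows H3K4me3 covered 15.4 kb in the mutant line and 15.1 kb in the WT line, but over the gene itself and 1 kb on each side the order was the other way, with 3.85 kb and 4.04 kb. H3K4me1 covered no base in the mutant line and 3.07 kb in the WT line, in 3 peaks that all lay outside Tgfb1, inside Ccdc97 or Hnrnpul1. H3K27ac covered 0.219 kb in the mutant line and 0.724 kb in the WT line. The 5 WT peaks all lay outside Tgfb1, at an end of or inside Bckdha, Exosc5, Tmem91, B9d2 or Hnrnpul1. Over the gene and 1 kb on each side the order turned, with 0.13 kb in the mutant line and no base in the WT line. A mutant H3K27ac peak of 130 bp lay inside Tgfb1, 1.37 kb from the start, where the WT list had none.

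Tgfb2 (chr1:186622787-186709697) encodes the isoform best known from development. Its start peak of H3K4me3, over position 186705989, was 4.004 kb wide in the mutant line and 3.58 kb in the WT line, with scores of 3100 and 3076. H3K4me1 covered no base in the mutant line and 0.971 kb in the WT line. H3K27ac covered 0.089 kb in the mutant line, a single peak of the smallest width in that list, and 0.649 kb in the WT line. That mutant peak (chr1:186627928-186628016) lay inside a WT H3K4me1 peak of 316 bp near the far end of the gene, and the nearest WT H3K27ac peak was 543 bp away. The WT H3K27ac length included 2 peaks, of 291 and 99 bp, at an end of the neighbouring gene Rrp15, 43.5 and 43.9 kb upstream of the start. Over Tgfb2 itself and 1 kb on each side H3K27ac covered 0.089 kb in the mutant line and 0.141 kb in the WT line.

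Tgfb3 (chr12:86056743-86079041) encodes the third isoform and was the only ligand gene with mutant H3K4me1. The mutant line had 1 peak of 320 bp, 887 bp inside the upper gene end, and this was the only H3K4me1 peak within 1 kb of an end of any of the 9 genes. In 1 line alone, H3K4me1 lay at a gene end in 5.52% of all genes, and in the mutant line alone in 1.79%. The WT line had no H3K4me1 there, and its 2.14 kb lay in 4 peaks inside the neighbouring gene Ttll5. In place of H3K4me1, the WT line had 2 H3K27ac peaks inside Tgfb3, of 88 bp and 96 bp, lying 388 bp and 1.31 kb from the upper end, with the mutant H3K4me1 peak between their positions. H3K27ac within the windows covered no base in the mutant line and 0.587 kb in the WT line. The H3K4me3 peak over the same end was 3.67 kb wide in the mutant line, with a score of 1700, and 4.07 kb wide in the WT line, with a score of 3100. Within 20 kb of the ends the order of H3K4me1 was the reverse of that in the wider window, with 0.320 kb in the mutant line and no base in the WT line.

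Inhba (chr13:16004256-16031609) encodes the inhibin beta A subunit, whose dimer is activin A, a ligand that signals through Smad2 and Smad3. It was the only one of the 9 genes with more H3K27ac in the mutant line, and it also had more H3K4me3 there. H3K4me3 covered 11.3 kb in the mutant line and 7.32 kb in the WT line, and 50 of the 16977 genes with H3K4me3 (0.295%) had a larger difference in that direction. The peak over the start was 2.52 kb wide in the mutant line and 2.07 kb in the WT line, with scores of 1036 and 723. Downstream of it the mutant line had a single peak of 8.83 kb with a score of 3100, starting 2.35 kb from the start site. The WT line had separate peaks of 1.29 kb and 3.96 kb there, with scores of 240.5 and 2881. H3K27ac covered 0.375 kb in the mutant line, in 4 peaks of 89 to 103 bp, and no base in the WT line, as in 6.1% of covered genes. The mutant H3K27ac peaks lay 5.41, 12.05, 21.8 and 39.4 kb downstream of the start, and the first lay inside the wide H3K4me3 peak. The WT line had a lone H3K4me1 peak of 231 bp, 1.44 kb upstream of the start, and the mutant line had none.

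The promoter of Inhba differed in base composition from that of Smad3, the gene with the most H3K4me1, and both are shown because H3K4me3 at promoters is known to follow CpG density. The windows are 250 bases before to 50 after the start site on the gene's strand, from RefSeq GRCm38.p6, at chr13:16011601-16011900 for Inhba (plus strand) and chr9:63757945-63758244 for Smad3 (minus strand). Capitals mark each CpG.
Inhba: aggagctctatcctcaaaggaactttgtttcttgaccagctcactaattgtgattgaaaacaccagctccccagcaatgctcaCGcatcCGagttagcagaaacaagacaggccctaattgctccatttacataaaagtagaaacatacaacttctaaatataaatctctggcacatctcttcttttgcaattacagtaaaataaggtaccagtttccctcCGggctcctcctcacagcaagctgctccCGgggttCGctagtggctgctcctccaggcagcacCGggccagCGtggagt
Smad3: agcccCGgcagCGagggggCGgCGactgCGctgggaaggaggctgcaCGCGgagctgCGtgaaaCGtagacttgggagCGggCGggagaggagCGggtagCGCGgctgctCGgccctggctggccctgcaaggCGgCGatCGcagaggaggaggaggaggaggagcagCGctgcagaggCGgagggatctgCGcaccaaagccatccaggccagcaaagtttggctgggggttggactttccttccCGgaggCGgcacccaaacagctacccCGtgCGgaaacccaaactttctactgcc
The Inhba window held 7 CpG and the Smad3 window 25, beside 10 for Tgfb2, 15 for Tgfbr2, 22 for Tgfbi, 30 for Tgfb1 and 34 for the main start of Tgfbr1. Of all promoters in the table, 47.7% had fewer CpG than Inhba and 81.6% fewer than Smad3. Both windows were covered by H3K4me3 over all 300 bases in both lines.

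Of the receptors, Tgfbr1 (chr4:47353222-47414926) encodes the type I receptor kinase. Its start peak of H3K4me3 was 3.14 kb wide in the mutant line and 3.30 kb in the WT line, with scores of 3100 in both. A second start site in the promoter table, at 47386216, had no peak of any mark in either line. A WT H3K27ac peak of 348 bp, the widest of this mark around the 9 genes, began 187 bp downstream of the main start. H3K27ac within the windows covered no base in the mutant line and 0.653 kb in the WT line. H3K4me1 covered no base in the mutant line and 1.60 kb in the WT line, in 3 peaks lying 23.8 to 49.0 kb upstream of the start, 2 of them inside Col15a1. H3K4me3 over the windows, at 4.77 kb in the mutant line and 4.71 kb in the WT line, differed by 0.058 kb, and the order was the reverse within 20 kb.

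Tgfbr2 (chr9:116087695-116175363) encodes the type II receptor, which starts the cascade. It had no H3K4me1 peak within 50 kb of its ends in either line. H3K27ac covered no base in the mutant line and 0.088 kb in the WT line, a single peak of the smallest width in that list. That peak lay directly over the start site, at chr9:116175357-116175444, with a deposited fold of 4.34 over control. The H3K4me3 peak over the start was 3.57 kb wide in the mutant line and 3.36 kb in the WT line, and the WT line had 2 more peaks, of 678 bp and 636 bp, about 8 kb inside the gene, at 8.44 and 7.73 kb from the start. Total H3K4me3 was 3.57 kb in the mutant line and 4.67 kb in the WT line. The promoter window (chr9:116175314-116175613, minus strand) is shown because the WT peak falls inside it, and capitals mark the 88 bases of that peak.
Tgfbr2: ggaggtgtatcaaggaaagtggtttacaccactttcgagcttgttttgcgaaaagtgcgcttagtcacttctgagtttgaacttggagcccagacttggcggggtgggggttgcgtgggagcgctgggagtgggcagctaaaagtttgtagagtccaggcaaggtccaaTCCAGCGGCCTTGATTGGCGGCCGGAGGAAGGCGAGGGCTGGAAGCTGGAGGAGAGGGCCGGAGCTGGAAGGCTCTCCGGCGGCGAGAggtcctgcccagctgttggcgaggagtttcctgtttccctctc
The mutant list had no H3K27ac base in this window, while H3K4me3 covered all 300 bases in both lines. The window held the letters CAGAC, searched on both strands, at 1 place, 160 bases before the start and outside the marked bases. CAGAC was present in 49.7% of 27025 promoters of the same length, so its presence here is a description only.

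Smad3 (chr9:63646766-63757994), the transcription factor that carries the signal to DNA, showed the widest difference in H3K4me1. Within 50 kb of its ends the mark covered no base in the mutant line and 16.4 kb in the WT line. In the WT line 16 of the 21887 genes were covered more, and of the 16162 genes with no mutant H3K4me1, 2 had more in the WT line. The WT windows held 25 H3K4me1 peaks, 21 of them inside the gene, and over the whole gene and 1 kb on each side the WT line had 18.6 kb. The WT peaks inside the 111 kb gene lay 8.02 to 99.9 kb from the start site and were 210 bp to 2.04 kb wide. With the WT list reduced to its 3649 most significant peaks, the length of the mutant list, 4.24 kb remained at Smad3 against none in the mutant line.

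H3K27ac at Smad3 was close in amount between the lines but placed differently. It covered 1.04 kb in the mutant line, in 7 peaks, and 1.26 kb in the WT line, in 8 peaks. The WT peaks included 1 of 173 bp lying 225 bp inside the start, and the mutant line had none within 35 kb of the start on either side, its nearest lying 35.1 kb upstream and 42.0 kb downstream. With lists of equal length the amounts turned to 1.04 kb in the mutant line and 0.659 kb in the WT line, and dividing by list length turned the order too. An intronic site 52 kb from the start, between the windows, was the only H3K27ac site along Smad3 where peaks of the lines overlapped. There the mutant peak (chr9:63705848-63705990) had a deposited fold of 6.68 and the WT peak (chr9:63705887-63706013) one of 6.58. Upstream, a mutant H3K27ac peak of 284 bp (chr9:63793092-63793375) lay inside a WT H3K4me1 peak of 1.34 kb that also held a WT H3K27ac peak 861 bp away.

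H3K4me3 at Smad3 covered 8.999 kb in the mutant line and 12.8 kb in the WT line. The start peak was 5.16 kb wide in the mutant line and 5.97 kb in the WT line, with scores of 3100 in both. The WT line also had H3K4me3 peaks of 1.29 kb and 495 bp inside the gene, 9.27 and 30.3 kb from the start, each overlapping WT H3K4me1. The mutant line had no H3K4me3 inside Smad3 beyond the start peak.

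**Figure D2:**
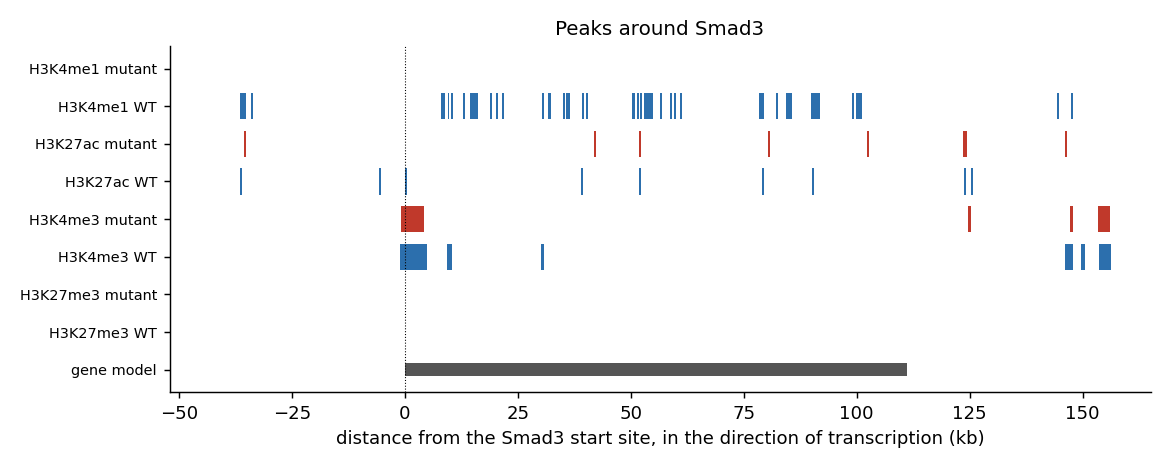
Peaks along Smad3, with distance from the start site in kb in the direction of transcription on the horizontal axis and 1 row per line and mark, the mutant (red) above the WT (blue); the grey bar is the gene model, and very narrow peaks are drawn as thin lines. The mutant H3K4me1 row is empty, while the WT row holds peaks from 8.02 kb onward through the gene. The H3K4me3 start peaks of 5.16 and 5.97 kb lie at the same place.

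Smad7 (chr18:75367365-75395935), the inhibitory SMAD that TGF-beta itself induces, kept the most mutant H3K4me1 of the 9 genes. The mark covered 1.78 kb in the mutant line and 8.11 kb in the WT line, where 349 and 282 of all genes were covered more. All 4 mutant peaks, of 232 to 806 bp, overlapped WT peaks and lay inside the gene. Of the 12 WT peaks 8 lay inside the gene and 4 in flanking sequence, 2 of these inside Ctif. With the WT list reduced to 3649 peaks the order turned, with 1.78 kb in the mutant line and 0.830 kb in the WT line, and dividing by list length turned it too. H3K27ac covered 0.141 kb in the mutant line and 0.811 kb in the WT line. The WT line had a peak of 231 bp at 281 bp outside the lower gene end, and the single mutant peak of 141 bp lay 1.03 kb inside that end, just beyond the limit for a gene end.

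H3K4me3 formed a very wide domain over Smad7 in both lines. It was a single peak of 15.1 kb in the mutant line and 15.7 kb in the WT line, running over the lower gene end and ending 15.1 kb short of the upper gene end in the mutant line and 14.7 kb short of it in the WT line. Further inside, the mutant line had 3 small peaks of 485 to 769 bp, and the WT line had 4 peaks, the widest of 4.04 kb. In total H3K4me3 covered 18.4 kb in the mutant line and 24.6 kb in the WT line.

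Tgfbi (chr13:56609586-56639359) encodes a secreted matrix protein named for its induction by TGF-beta. H3K4me3 within the windows covered 2.14 kb in the mutant line and 4.60 kb in the WT line. A mutant amount of at most 0.5 times the WT amount was seen for this gene alone among the 9, and in 4.49% of all genes with H3K4me3. The start peak was 2.14 kb wide with a score of 1014 in the mutant line and 3.61 kb wide with a score of 2140 in the WT line. The WT peak reached further into the gene than the mutant peak, where it overlapped a WT H3K4me1 peak. The WT line had 2 further small H3K4me3 peaks upstream, of 532 and 455 bp.

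H3K4me1 around Tgfbi covered no base in the mutant line and 8.66 kb in the WT line, and 237 genes were covered more in the WT line. Of the 15 WT peaks 3 lay inside the gene, 1.73, 3.71 and 5.50 kb from the start, 7 lay upstream at 7.32 to 27.8 kb, and 5 lay beyond the far end. With the WT list reduced to 3649 peaks 4.19 kb remained. H3K27ac covered 0.392 kb in the mutant line, in 3 peaks, and 0.806 kb in the WT line, in 7 peaks. In the WT line 6 of these 7 lay within 1 kb of WT H3K4me1, and 5 lay upstream of the gene. Over the gene and 1 kb on each side the order of H3K27ac turned, with 0.089 kb in the mutant line and no base in the WT line. The mutant peak of 161 bp beyond the far end (chr13:56647993-56648153) was adjacent to a WT H3K27ac peak (chr13:56648154-56648241), and both lay inside the same WT H3K4me1 peak of 422 bp. The promoter window of Tgfbi (chr13:56609336-56609635, plus strand) is shown because its H3K4me3 differed in width, and capitals mark CAGAC or its reverse complement GTCTG.
Tgfbi: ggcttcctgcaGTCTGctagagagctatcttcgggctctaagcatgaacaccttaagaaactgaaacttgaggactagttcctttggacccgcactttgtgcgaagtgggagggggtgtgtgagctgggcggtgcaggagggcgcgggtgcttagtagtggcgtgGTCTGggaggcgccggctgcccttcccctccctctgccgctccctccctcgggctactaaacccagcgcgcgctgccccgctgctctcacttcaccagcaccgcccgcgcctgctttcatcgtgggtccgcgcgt
The letters were found at 2 places, 239 and 85 bases before the start. Of the 7 genes in the promoter table, Tgfb2 had them at 2 places and Tgfbr2 at 1, and Tgfb1, Inhba, Smad3 and the main start of Tgfbr1 at none.

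**Figure D3:**
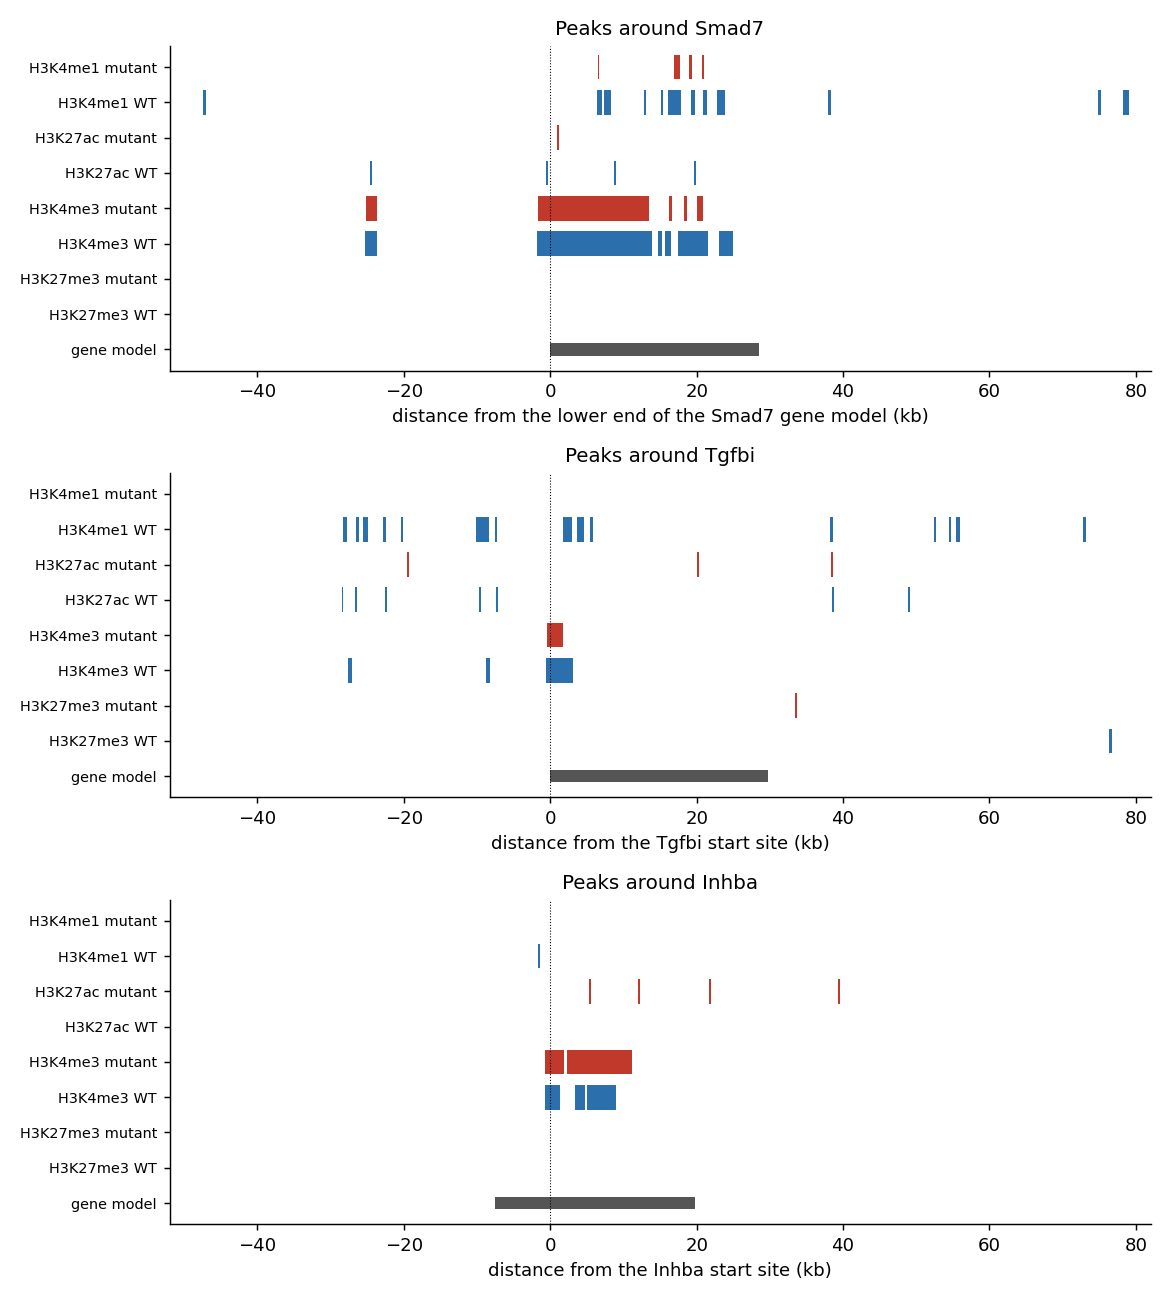
Peaks around Smad7, Tgfbi and Inhba, with distance in kb from the lower gene end (Smad7) or the start site on the horizontal axis and 1 row per line and mark, the mutant (red) above the WT (blue); the grey bar is the gene model, and very narrow peaks are drawn as thin lines. Smad7 carries H3K4me3 peaks of 15.1 and 15.7 kb, the Tgfbi start peak is 2.14 kb in the mutant line against 3.61 kb in the WT line, and Inhba has 4 H3K27ac peaks in the mutant line and none in the WT line.

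Set among all genes, Smad3, Tgfbi and Smad7 stood near the top of the WT H3K4me1 range, with 16, 237 and 282 genes above them, while Inhba and Tgfb2 had 9357 and 5276 above them. Smad3 also ranked high for H3K27ac in both lines, with 355 genes above it in the mutant line and 640 in the WT line. For H3K4me3 Smad7 ranked highest of the 9, with 818 and 375 genes above it. Ranks take no account of gene length or of neighbours inside the windows.

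**Figure D4:**
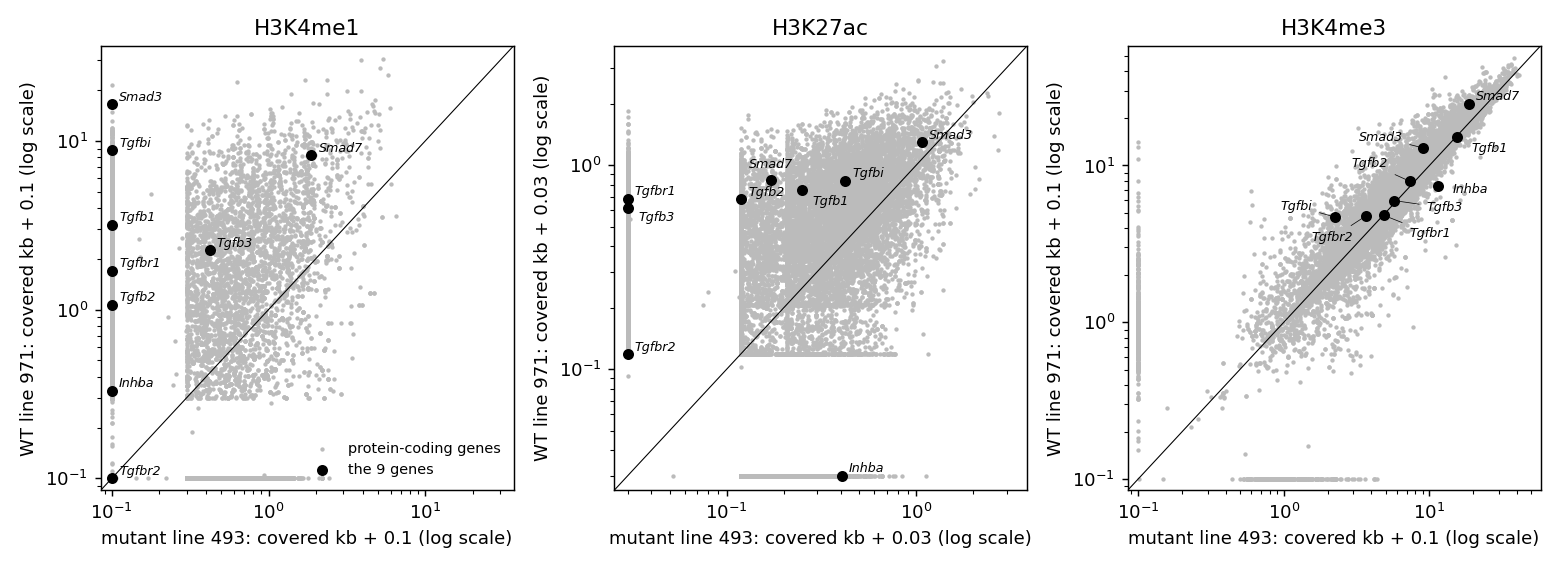
Covered length within 50 kb of gene ends in kb, mutant line on the horizontal axis and WT line on the vertical axis, both on a log scale with a small constant added, 1 panel per mark; grey points are protein-coding genes, black points the 9 genes, and the line marks equal lengths. For H3K4me1, 6 of the 8 covered genes lie on the left edge with no mutant base, and Smad3 is near the top of it with 16.4 kb. Inhba lies below the line for H3K27ac and H3K4me3.

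Peaks of the enhancer marks around the 9 genes were also compared by position. Of 5 mutant H3K4me1 peaks 4 overlapped a WT peak, all at Smad7, against 31.7% of the whole mutant list. Of 66 WT H3K4me1 peaks 7.58% lay within 1 kb of a mutant peak, against 11.6% of the whole WT list. None of the 18 mutant and 38 WT H3K27ac peaks in the windows overlapped, where 12.2% and 8.65% of the whole lists did, and 33.3% and 13.2% lay within 1 kb of the other line, against 38.8% and 30.1% of the whole lists. At the smallest width of their list (89 and 88 bp) were 10 of the 18 mutant and 10 of the 38 WT H3K27ac peaks, against 34.6% and 27.2% of the whole lists. The median width was 89 bp for these mutant peaks against 107 bp for the whole list. For the WT peaks it was 134 bp against 116 bp. Of the WT H3K27ac peaks 44.7% lay within 1 kb of WT H3K4me1, against 20.7% of the list. Of these 17 WT peaks Tgfbi gave 6 and Smad3 gave 4, and no other gene gave more than 2. None of the mutant H3K27ac peaks lay near mutant H3K4me1, against 6.72% of the list. Of the 18 mutant H3K27ac peaks 3 (16.7%), at Tgfb2, Smad3 and Tgfbi, overlapped H3K4me1 of the WT line, where the mutant list had none, against 6.82% of the mutant list.

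H3K27me3 was not found at the ends of these genes. No gene end had it in the WT line, against 9.94% of all genes, and none had a region of the mutant list, against 0.219%. Within 50 kb the WT line had H3K27me3 near 3 of the 9 genes, against a background of 42.4%: 1.80 kb in 5 peaks around Tgfbr1, 0.381 kb near Tgfbi and 0.251 kb near Tgfb1. The mutant list had a single region, of 151 bp at chr13:56643114-56643264, lying 3.76 kb beyond the far end of Tgfbi, with a deposited fold of 4.73. A region of that list lay within 50 kb of 5.77% of all genes.

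A wider list of 76 other pathway genes was read in the same way. Windows of neighbouring genes can overlap, as for Acvr1b and Acvrl1 or for Smad5 and Tgfbi, and a shared peak counts for each gene. For H3K4me1, 47 of the 55 covered genes had less in the mutant line (background 80.5%) and 8 had more, and their summed length in the mutant line was 10.8% of the WT sum. For H3K27ac, 47 of 69 (68.1%) had less, below the background of 72.6%, and 22 more. For H3K4me3, 60 of 73 had less (background 70.3%) and 13 more, including less at all 12 receptor genes. Divided by list length the counts with less in the mutant line were 37 of 55, 37 of 69 and 39 of 73, with 8 of the 12 receptor genes. With lists of equal length, H3K4me1 was lower at 20 of 39 genes. The backgrounds above are for undivided lengths and whole lists, and none was computed for these other counts. Over the 55 covered genes the median difference in H3K4me1, mutant minus WT, was -1.41 kb. At gene ends H3K27ac was found in the mutant line alone at 10 of the 76 genes (background 6.84%), in the WT line alone at 15 (background 16.1%) and in both at 12 (background 12.6%).

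The named genes of the wider list are those with the largest differences for a mark in either direction, or with H3K4me3 at a gene end in 1 line alone. Ski, a corepressor that binds Smad3 and Smad4, had 1.29 kb of H3K4me1 in the mutant line and 18.8 kb in the WT line, and 10.6 and 23.0 kb of H3K4me3. Ltbp2, of the latent TGF-beta binding protein family, had no H3K4me1 in the mutant line and 11.7 kb in the WT line. Acvr1b, an activin type I receptor, had 10.9 kb of H3K4me3 in the mutant line and 21.5 kb in the WT line. Another receptor gene, Acvrl1, lies inside the Acvr1b windows, so these lengths include peaks at Acvrl1. The cell cycle inhibitor gene Cdkn1a and the collagen crosslinking enzyme gene Lox had an H3K4me3-marked gene end in the WT line alone, and within the windows Lox had 1.48 kb in the mutant line and 4.26 kb in the WT line. Cdkn1a had 5.95 kb in the mutant line and 9.78 kb in the WT line.

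Among SMAD genes, Smad6, an inhibitor of BMP signalling, had 0.092 kb of H3K27ac in the mutant line and 1.12 kb in the WT line, and Smad5, which carries BMP signals, had none in the mutant line and 0.992 kb in the WT line. In the other direction, the ligand gene Gdf11 had 1.35 kb of H3K27ac in the mutant line and 0.492 kb in the WT line. Rnf111, a ubiquitin ligase that degrades Smad7 and Ski family proteins, had 0.743 kb in the mutant line and 0.088 kb in the WT line. For H3K4me1, Cdkn2b, a cell cycle inhibitor gene, had 1.22 kb and Zfyve9, the anchor of Smad2 and Smad3 at endosomes, 0.810 kb in the mutant line, and both had none in the WT line. Around Cdkn2b the WT line had no peak of any of the 4 marks, and the mutant line also had 0.260 kb of H3K27ac. Why the WT lists were empty there was not tested. H3K4me3 covered more in the mutant line around the ligand gene Bmp2, with 9.19 kb against 7.29 kb in the WT line, and around Nog, a BMP antagonist gene, with 2.06 kb against 0.478 kb.

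**Figure D5:**
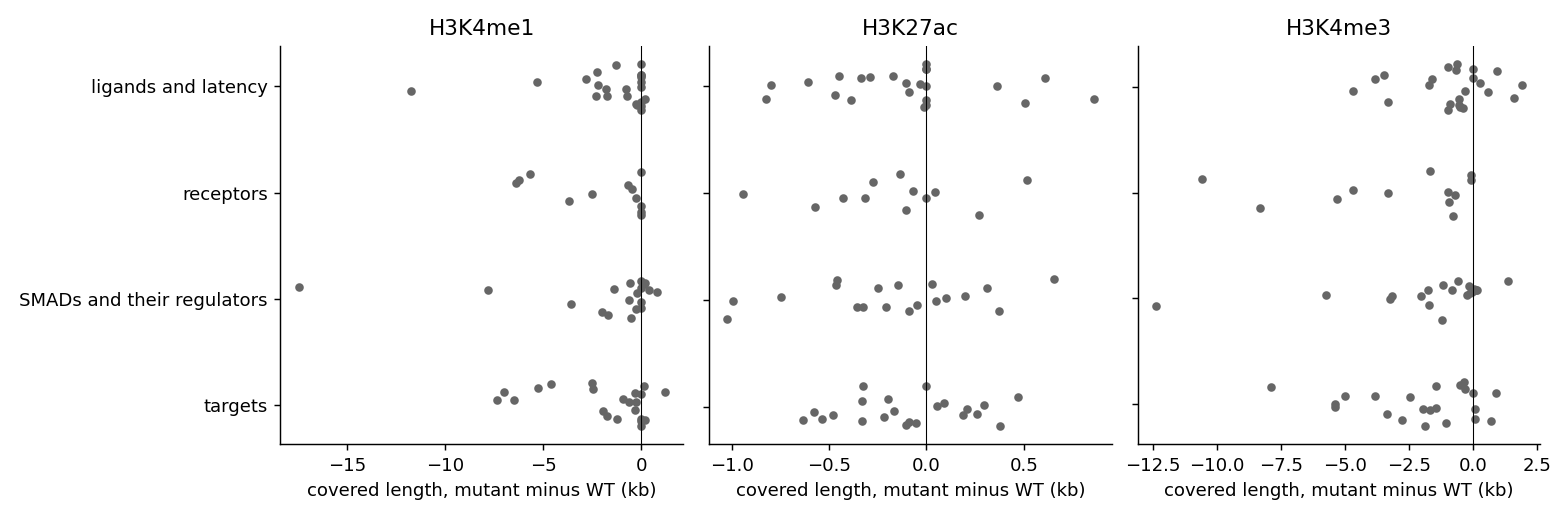
Difference in covered length in kb, mutant minus WT, for the 76 other pathway genes (1 point each) on the horizontal axis, by role on the vertical axis with random vertical jitter, 1 panel per mark. Points left of 0 had less in the mutant line. For H3K4me3 all 12 receptor genes lie left of 0 (8 of 12 had less once lengths were divided by list length), and the lowest H3K4me1 point is Ski, with 1.29 kb in the mutant line and 18.8 kb in the WT line.

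By the smallest summed difference in covered length over the 8 lists, the genes most like a member were Purg for Tgfbr2 (0.302 kb), Alg8 for Tgfb2 (0.634 kb) and Adm for Tgfb3 (1.11 kb). The summed difference compares 1 library per list and says nothing of shared function.

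The labelled cell type was read from markers in the same lists. H3K4me3 lay at a gene end of 5 of 8 melanocyte genes in the mutant line and 3 of 8 in the WT line, against backgrounds of 56.7% and 56.4%, and the pigment genes Tyr, Tyrp1 and Dct had it in neither line. The windows of the 8 melanocyte genes held 54.4 kb of H3K4me3 in the mutant line and 47.4 kb in the WT line, and the WT line had H3K27me3 at an end of Sox10 and Tyr. Sox10 alone held 17.1 kb of the mutant sum and 6.60 kb of the WT sum. Pmel, Tyrp1 and Mlana also held more in the mutant line, while Mitf, Dct and Pax3 held less. For fibroblast genes, several of which TGF-beta induces, H3K4me3 lay at a gene end of 4 of 8 in the mutant line and 5 of 8 in the WT line, and their windows held 32.5 kb of it in the mutant line and 48.9 kb in the WT line. Of these sums, Col1a2 held none in the mutant line and 7.88 kb in the WT line, and Thy1 3.9 and 9.9 kb. Col1a1, Col3a1 and Pdgfrb also held less in the mutant line, and Pdgfra slightly more. Endothelial and immune genes had 1 of 5 marked by H3K4me3 in each line, and keratinocyte genes 3 of 5 in the mutant line and none in the WT line. Those 3 keratinocyte genes, Dsp, Perp and Grhl3, had WT H3K27me3 at a gene end, as did the immune genes Cd3e and Itgam. The part of these cell states in the differences above was not tested.

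Some peaks lay close to the limits. Just within the 50 kb limit lay WT H3K4me1 peaks at Tgfb3 (48.1 kb), Tgfbr1 (49.0 kb) and Smad7 (49.6 kb), and a WT H3K27ac peak at Tgfb1 (49.5 kb). The 1 kb limit left out the mutant Smad7 H3K27ac peak at 1.03 kb, the WT Tgfb3 peak at 1.31 kb and the mutant Tgfb1 H3K27ac peak at 1.37 kb, and kept the mutant Tgfb3 H3K4me1 peak at 887 bp. The direction of a difference held under every alternative run for H3K4me1 at Smad3 and Tgfbi, for H3K27ac at Tgfb2, Tgfb3, Inhba, Tgfbr1 and Smad7, and for H3K4me3 at Inhba, Smad3, Smad7 and Tgfbi. It turned or became equal under at least 1 alternative at the other genes with a difference.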

How the data were processed

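Peak lists from 8 ChIP-seq libraries, 1 per line and mark, were read as deposited, and 4 input libraries were not used here. The submitters' processing notes name the build mm10 and the tools FastQC, MultiQC and MACS2. For the aligner, read filters and sequencing depth, nothing is stated in the sources used here, so the precision that depth gives is unknown. Deposited values are a fold over control (a ratio) with −log10 p and −log10 q values for H3K4me1, H3K27ac and H3K27me3, and for H3K4me3 a score that the authors deposited in the older MACS layout (−10 times log10 p), with a minimum of 50. They were used to rank peaks within a list and to describe single peaks. Where values of both lines are given side by side, each comes from 1 library of unknown depth. Such pairs do not measure a difference in strength between the lines.

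Peaks on the 19 autosomes, X and Y were kept. Covered bases were summed, after merging, in the union of 50 kb windows around both gene ends from RefSeq GRCm38.p6, and a gene end counted as marked by a peak within 1 kb. That gene table has no strand, so start sites came from the RefSeq promoter table, which holds 7 of the 9 genes, Tgfb3 and Smad7 not among them. Counting was tested on simulated data. Python 3.11.15 with numpy 2.4.6 and pandas 2.3.3 was used. The 9 genes, the 76 other pathway genes and the markers were chosen with earlier results of these data known. Of the 76, those named were genes with H3K4me3 at an end in 1 line alone, and for each mark the 2 largest differences in each direction. Alternatives changed the window, the gene-end distance, the list length and the scale.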

Additional observations from a re-analysis of the deposited data

How the results depend on the processing

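No paired analysis was possible because each line had 1 library per mark. Of 54 alternative values for 11 counts, 46 were within 1.5 times the reported count. The share over all genes was not computed under the alternatives, so these values have no background. With lists of equal length, fewer WT peaks being counted, H3K4me1 was lower in the mutant line at 5 of 6 covered genes, in place of 8 of 8, and at 20 of 39 other pathway genes, in place of 47 of 55. Over the gene and 1 kb on each side, a region chosen after seeing the data, the first count was 5 of 6, fewer genes being covered. Divided by list length, H3K4me3 was lower at 39 of 73 other pathway genes in place of 60. H3K4me1 at a gene end in 1 line alone was seen at 2 genes with 2.5 kb and at 0 of 7 with the start site alone, in place of 1. H3K27ac there was seen at 3 of 7 genes with the start site alone, in place of 5 of 9, as Tgfb3 and Smad7 have no entry in the start site table. H3K4me3 in 1 line alone was seen at 1 gene in the more significant 50% of each list, in place of 0, the Tgfbi mutant peak being left out. Dividing by list length turned the order for H3K4me1 at Smad7, for H3K27ac at Smad3 and for H3K4me3 at Tgfb2 and Tgfb3. In the more significant 50% of each list H3K27ac at Smad3 was 0.679 kb in the mutant line and 0.455 kb in the WT line. The causes were not tested.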

Other observations

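H3K27me3 was also read at the other pathway genes. In the WT line H3K27me3 lay at a gene end of 6 of the 76 genes, which were Bmp4, Inhbb, Mmp9, Nodal, Nog and Nrros, against 9.94% of all genes. These include developmental ligand genes (Bmp4, Nodal, Inhbb) and the BMP antagonist gene Nog. No gene end of the 76 had a region of the mutant H3K27me3 list, and such regions lay within 50 kb of Acvrl1, Col1a1 and Lox, 3 of the 76 genes, against 5.77% of all genes. Around Lox these regions covered 0.431 kb, and H3K4me3 covered less there in the mutant line than in the WT line.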
